A study of Rattus norvegicus with 8 samples.

Results

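Immediate early genes are the genes that a cell transcribes within minutes of a stimulus, before any protein has to be made. The 10 described here were taken by symbol from the 32623 genes of the count tables: Fos, Fosb, Jun, Junb, Jund, Egr1, Ier2, Ier3, Dusp1 and Zfp36. They were selected on measured values: Fosb and Egr1 were low in several unrelated cell types of the libraries from the severe injury, and the 10 genes were chosen with this known. Values of these 10 genes that set severe libraries against others are therefore given as a description, with no test. Droplet-based single-cell RNA sequencing had been done on the spinal cord of 8-week-old female Wistar rats a week after surgery. There were 2 libraries each of sham (laminectomy alone), mild, moderate and severe contusion, the last 3 being made by dropping a weight on the exposed cord from increasing heights. Every library came from tissue digested with enzymes, and the sources used here do not tell how long each digestion took. The study's text counts as many sequenced cords as there are libraries, while the labels do not say how many animals a library holds, and p-values measure the spread between libraries.

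Fos and Fosb code for partners that bind DNA only as dimers with a Jun protein, and Jun, Junb and Jund are those Jun proteins. Together they form the AP-1 transcription factors. Egr1 is a zinc finger transcription factor that is switched on by serum response factor and growth factor signalling. Ier2 codes for a small nuclear regulator of transcription, and Ier3 for a protein tied to cell survival under stress. Dusp1 and Zfp36 are brakes: the first codes for a phosphatase that inactivates MAP kinases, and the other for tristetraprolin, which marks AU-rich messenger RNAs for decay. In nervous tissue these genes are known to respond to firing, injury and inflammation, and also to the warming and digestion of tissue during cell isolation.

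Cyclic AMP and calcium signals reach several of these genes through an 8-base element, TGACGTCA, that the factor CREB binds. RefSeq (build GRCr8) gave a promoter window for 7 of the 10 genes (Fosb, Zfp36, Dusp1, Jund, Egr1, Junb and Ier2). The window of Fosb lies inside the gene, away from the start that the RefSeq gene list gives, so the letters found in it are not those before that start. The 250 bases before the start of 4 genes are shown, 5′ to 3′ in the direction of the gene, because 3 of them hold the element, in capitals, and the fourth, of another Jun gene, does not.
Dusp1 (chr10:17184603-17184852, plus strand): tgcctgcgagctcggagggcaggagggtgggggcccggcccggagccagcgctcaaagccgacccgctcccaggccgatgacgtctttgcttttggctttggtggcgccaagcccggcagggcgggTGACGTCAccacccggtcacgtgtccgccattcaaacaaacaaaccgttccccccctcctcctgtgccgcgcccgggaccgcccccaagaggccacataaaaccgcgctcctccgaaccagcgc
Jund (chr16:18769772-18770021, minus strand): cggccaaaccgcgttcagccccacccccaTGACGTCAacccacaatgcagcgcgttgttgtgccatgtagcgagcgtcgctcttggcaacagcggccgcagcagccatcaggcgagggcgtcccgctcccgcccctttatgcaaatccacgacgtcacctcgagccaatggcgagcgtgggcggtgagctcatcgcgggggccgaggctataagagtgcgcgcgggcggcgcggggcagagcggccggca
Ier2 (chr19:40399123-40399372, plus strand): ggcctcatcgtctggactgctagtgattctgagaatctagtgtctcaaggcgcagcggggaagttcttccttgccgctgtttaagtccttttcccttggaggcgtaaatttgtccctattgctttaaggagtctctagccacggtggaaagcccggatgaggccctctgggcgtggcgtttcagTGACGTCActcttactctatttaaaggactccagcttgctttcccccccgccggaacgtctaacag
Junb (chr19:40080876-40081125, plus strand): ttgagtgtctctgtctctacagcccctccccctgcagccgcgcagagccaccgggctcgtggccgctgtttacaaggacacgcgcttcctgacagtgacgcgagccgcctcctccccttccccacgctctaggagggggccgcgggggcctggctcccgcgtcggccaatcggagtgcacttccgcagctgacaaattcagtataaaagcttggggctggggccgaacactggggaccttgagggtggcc
The element reads the same on both strands and lay in 1.59% of 33469 such windows. It began 124 bases before the end of the window in Dusp1, 221 bases before it in Jund and 66 bases before it in Ier2. The serum response element (CArG box), looked for on both strands, was found in 1.5% of windows and in those of Zfp36 and Egr1. The AP-1 site TGAGTCA was in 4.05% of windows and in none of the 7, and TATAAA in 12.9% and in those of Fosb and Junb (both strands each). These are matches of letters and not measured binding sites.

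After filtering, 55455 of 68658 deposited cells were kept, and 40287 of these (72.6%) were assigned to a type by their markers. The libraries held 23535282 to 99689125 UMIs (unique molecular identifiers, each 1 captured RNA molecule) in kept cells, with a median of 2745 to 10836 UMIs per cell. Macrophages and microglia were the largest class, with 565 to 7051 cells a library, and their 6 defining markers summed to between 8814 and 20293 CPM (UMIs of a gene per 1000000 UMIs of the class). Sham replicate 1 stood apart: 4622 of its 6690 assigned cells were neutrophils, against 1 in sham replicate 2, and its macrophages/microglia carried the 6 neutrophil markers at 3306 CPM, against 54.1 to 171 CPM in the other 7 libraries. The median share of mitochondrial UMIs in kept cells was 1.38% in sham replicate 1 and 2.04% and 2.11% in the severe libraries, against 4.39% to 5.87% in the other 5. Pairs of libraries shared 5 to 40 cell barcodes, and 555 of 68095 distinct barcodes occurred in more than 1 library. A sum of UMIs over a class does not tell less RNA per cell from fewer expressing cells.

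In macrophages/microglia, the resident and infiltrating phagocytes of the cord, the 10 genes together took 0.423% to 1.03% of all UMIs. Fos stood at 491 and 1515 CPM in the sham libraries, 2314 and 2265 after mild injury, 2538 and 669 after moderate injury and 214 and 373 after severe injury. The replicates of the sham and of the moderate group lay far apart, and sham replicate 1 and moderate replicate 2 were the nearest to the severe libraries. Fosb was at 60.8 and 287 CPM in sham, 340 and 373 in mild, 529 and 435 in moderate and 137 and 160 in severe. The lowest Fosb value was that of sham replicate 1, below both severe libraries. Jun stood at 1793 and 1590 CPM in sham, 858 and 898 in mild, 1951 and 1459 in moderate and 368 and 474 in severe. Here the mild libraries lay below sham and moderate, and the severe libraries below all 6 others.

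Junb went another way, with 419 and 1539 CPM in sham, 937 and 746 in mild, 891 and 693 in moderate and 2197 and 1328 in severe. The severe values overlapped with that of sham replicate 2. Jund was at 235 and 864 CPM in sham, 331 and 211 in mild, 738 and 1101 in moderate and 631 and 452 in severe, so that the mild libraries lay below the moderate and severe ones and the sham libraries overlapped with all groups. Egr1 was at 227 and 515 CPM in sham, 170 and 254 in mild, 447 and 202 in moderate and 68.9 and 41.1 in severe. Both severe values lay below all others, and the 3 other groups overlapped.

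Ier2 followed Fos, at 171 and 595 CPM in sham, 493 and 456 in mild, 469 and 205 in moderate and 148 and 137 in severe. Ier3 was highest in the severe libraries, at 2166 and 2345 CPM, against 359 and 1478 in sham, 854 and 858 in mild and 1237 and 481 in moderate. Dusp1 ranged from 305 CPM in sham replicate 1 to 1539 in sham replicate 2, with the other 6 libraries in between. Zfp36 ranged from 51.5 CPM in severe replicate 2 to 359.7 in sham replicate 2, and severe replicate 1, at 193, was in the middle of the other libraries.

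**Figure D1:**
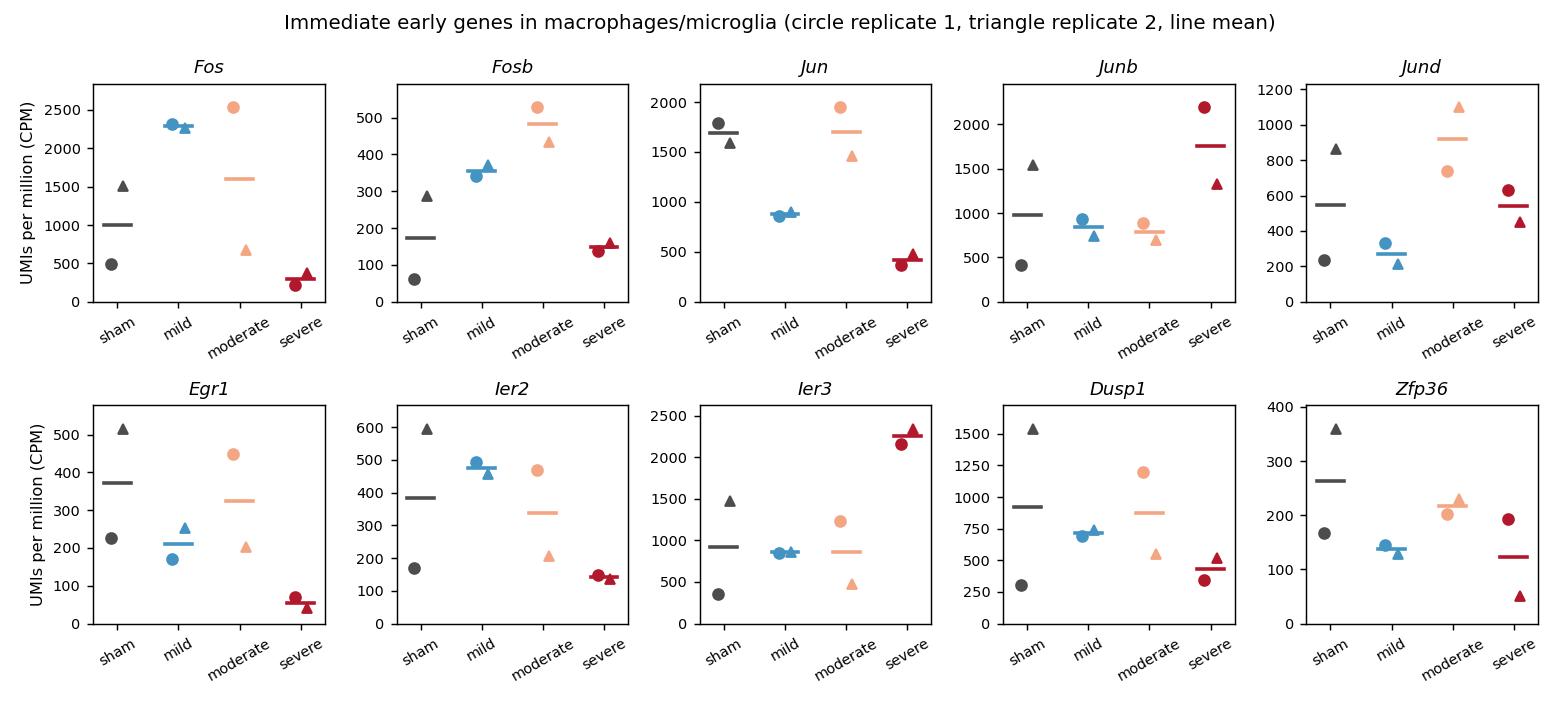
Level of each of the 10 genes in macrophages/microglia (CPM, linear axis from 0) by group, with circles for replicate 1, triangles for replicate 2 and a line for the mean of 2 libraries. Sham replicate 1 is the lowest of all libraries for Fosb, Junb, Ier3 and Dusp1, and both severe libraries lie above all others for Ier3 alone.

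For the sham, mild and moderate groups of macrophages/microglia, no gene of the 10 passed the test of a difference. Counts were summed per library and tested with edgeR's quasi-likelihood test, adjusted over all 13768 genes. For mild against sham 0 of 10 passed an adjusted p of 0.05, where 8.24% of all genes did. An unadjusted p below 0.05 was found for 1 of 10, beside 4159 of all 13768 genes. For moderate against sham 0 passed, against 4.07% of all genes, and 0 had an unadjusted p below 0.05, beside 3383 of all genes. For moderate against mild 0 passed, as did 0.0% of all genes, and 2 had an unadjusted p below 0.05, beside 1834 of all genes. DESeq2 called 1, 0 and 0 in these comparisons. Shares of all genes are those of edgeR, here and below, and none is given for DESeq2. The gene it called was Jun, whose log2 fold change in edgeR was -0.85 ± 0.28 (SE) for mild against sham, with an adjusted p of 0.0910. Which genes passed depended on the sham library used: without sham replicate 2, Fosb was higher in both mild (log2 fold change 2.84, edgeR adjusted p = 0.00384) and moderate (3.20, edgeR adjusted p = 0.00383), and Jund in moderate (2.17, edgeR adjusted p = 0.0216), while without sham replicate 1, Jund was lower in mild (-1.75, edgeR adjusted p = 0.0182). In these fits the lone sham library was assumed to vary like the other groups.

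Per cell the spread was wide. Fos, Fosb, Jun and Egr1 added up to a median of 36.9 per 10000 UMIs in cells of sham replicate 2, with quartiles of 18.5 and 59.0, and to 6.43 in sham replicate 1, with quartiles of 0 and 23.9. The medians were 31.4 and 33.6 in mild, 50.1 and 11.9 in moderate and 5.38 and 5.29 in severe. With every cell thinned to 1000 UMIs, the share of macrophages/microglia with a UMI of Fos was 24.6% and 67.0% in sham, 79.4% and 77% in mild, 79.3% and 27.9% in moderate and 18.7% and 21.8% in severe. Unthinned, the Fos shares were 46.2% and 93.1%, 97.2% and 96.8%, 97.8% and 68.4%, and 63.6% and 65.3%. Thinning left out 13 to 427 cells a library. Ier3 went the opposite way in the severe libraries, where 73.1% and 69.1% of thinned cells had a UMI of it, against 22.8% and 64.1% in sham.

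Erythroid cells were taken as a guide to the level of free RNA, since maturing red cells lose their nucleus. Whether they hold transcripts of their own from these genes was not tested. Enough of these cells were found in the severe libraries alone, 22 cells in replicate 1 and 265 in replicate 2, with a median of 6787 and 9604 UMIs. The other libraries, sham replicate 1 among them, thus have no such guide. The 10 genes had 29 of 149032 UMIs in the former and 214 of 2780255 in the latter, which is 195 and 77 CPM in sum. In macrophages/microglia of the same libraries the sum was 6466 and 5879 CPM. After thinning, 1 of 22 erythroid cells of severe replicate 1 had a UMI of Fos (4.55%, exact 95% binomial interval 0.115% to 22.8%), which is too few cells to set apart from the 18.7% of macrophages/microglia (16.1% to 21.5%). In severe replicate 2 it was 0 of 265, which allows a share of up to 1.13%, and the 21.8% of macrophages/microglia (20.4% to 23.2%) lay above this background. These intervals cover counting error only.

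Within the class, cells with at least 3 of the 6 microglia markers P2ry12, Tmem119, Gpr34, Sall1, Siglech and Cx3cr1 could be set against the rest of the same library, a comparison added after the data had been seen. Ier3 was higher in them in 8 of 8 libraries, by 0.66 ± 0.29 (SD) in log2(CPM + 1), and Ier2 in 8 of 8, by 0.44 ± 0.35 (exact sign-flip test over libraries, p = 0.00781 and adjusted p = 0.0328 over all genes for each). These were 2 of 10 genes, where 34.2% of all genes passed. Egr1 and Jun were higher in 7 of 8 libraries, by 0.64 ± 0.54 and 0.49 ± 0.40, and did not pass (exact sign-flip test, adjusted p = 0.0602 for each). Such cells made up 1545 of 2091 cells of sham replicate 2, 160 of 565 of sham replicate 1, 611 of 3587 and 878 of 4562 in mild, 1235 of 7051 and 321 of 3466 in moderate, and 89 of 900 and 766 of 3940 in severe. The sham libraries thus held more of them than the injured ones, among which the severe libraries did not stand apart, and the part of this make-up in the levels above was not tested.

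Differences between sham and injury that passed the test were found in the oligodendrocyte lineage. Only macrophages/microglia, oligodendrocytes and their precursors were tested against sham. Sham replicate 2 held 1 neutrophil, 1 T cell and 5 fibroblasts, below the limit of 20 cells. In oligodendrocyte precursors, the dividing glia that renew myelin-forming cells, 3 of 10 genes were higher in mild than in sham, against 1.03% of all 9803 genes, and 4 of 10 were higher in moderate than in sham, against 3.22%. None was lower. Fosb stood at 123 and 149 CPM in sham, 695 and 1073 in mild, 632 and 376 in moderate and 76.3 and 77 in severe. The mild and moderate libraries lay above sham with no overlap, and the log2 fold changes were 2.65 ± 0.37 (SE, edgeR adjusted p = 0.0106) for mild and 1.82 ± 0.37 (edgeR adjusted p = 0.0211) for moderate against sham. Fos stood at 1811 and 879.99 CPM in sham, 4027 and 5310.3 in mild, 3426 and 2781 in moderate and 987 and 922 in severe. Its mild libraries were the highest, and it passed for mild (1.80 ± 0.38, edgeR adjusted p = 0.0439) and not for moderate (1.19 ± 0.37, edgeR adjusted p = 0.0946).

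Jun, the dimer partner, had precursor levels of 532 and 737 CPM in sham, 1662 and 1895 in mild, 2147 and 3724 in moderate and 983 and 1394 in severe, so that all 3 injured groups lay above sham. It passed for moderate against sham (2.12 ± 0.38, edgeR adjusted p = 0.0143) and not for mild against sham (1.44 ± 0.37, edgeR adjusted p = 0.0635). Egr1 was at 314 and 269.8 CPM in sham, 517 and 685 in mild, 923 and 921 in moderate and 140.5 and 123 in severe. Moderate was higher than sham by 1.61 ± 0.29 (edgeR adjusted p = 0.0143), and the severe libraries were the lowest.

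Ier2 was higher in mild than in sham precursors by 2.22 ± 0.40 (edgeR adjusted p = 0.0257), with 91.0 and 205 CPM in sham and 699.6 and 795 in mild. Dusp1, the phosphatase, was higher in moderate than in sham by 1.90 ± 0.33 (edgeR adjusted p = 0.0143), with 59.1 and 117 CPM in sham and 346 and 385 in moderate. Between moderate and mild, 0 of 10 passed in edgeR, against 0.214% of all genes. An unadjusted p below 0.05 was found for 4 of 10, beside 1489 of all 9803 genes, and DESeq2 called 0. So a gene that passed against sham in 1 of these groups and not in the other was not shown to differ between them. The sham values came from 32 and 53 cells, and with a stricter gate sham replicate 1 kept 9 precursors, so that no contrast with sham could be fitted. Heat shock genes were tested in the same cells: 3 of 9 were higher in moderate than in sham precursors (Dnajb1, Hsph1 and Hsp90aa1, log2 fold changes of 2.33, 2.03 and 1.77, edgeR adjusted p from 0.0143 to 0.0373). For mild against sham 0 of 9 passed in edgeR. There 4 had an unadjusted p below 0.05, beside 1994 of all 9803 genes, and DESeq2 called 1. The part of heat shock genes in the calls was not tested. The Fosb call for mild held when any library was left out, while other calls were lost: Fos without mild replicate 1 (2.03, edgeR adjusted p = 0.195), mild replicate 2 (1.62, edgeR adjusted p = 0.150), moderate replicate 2 (1.79, edgeR adjusted p = 0.0539) or severe replicate 2 (1.84, edgeR adjusted p = 0.0517), Ier2 without mild replicate 1 (2.35, edgeR adjusted p = 0.0958) or mild replicate 2 (2.16, edgeR adjusted p = 0.0776). For moderate against sham, Jun (1.75, edgeR adjusted p = 0.114), Dusp1 (1.89, edgeR adjusted p = 0.0961) and Egr1 (1.68, edgeR adjusted p = 0.0961) were lost without moderate replicate 2, and Fosb without sham replicate 1 (1.65, edgeR adjusted p = 0.0610), moderate replicate 1 (1.40, edgeR adjusted p = 0.0927) or moderate replicate 2 (2.20, edgeR adjusted p = 0.0501).

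In mature oligodendrocytes, the myelin-forming cells, 3 of 10 genes were higher in mild than in sham, against 8.08% of all 9457 genes. Fos was at 425 and 505 CPM in sham, 2553 and 3557 in mild, 499 and 1123 in moderate and 2178 and 948 in severe. The mild libraries lay above all others, with a log2 fold change over sham of 2.72 ± 0.46 (edgeR adjusted p = 0.00961), and severe replicate 1 came next. Jun was at 277 and 380.3 CPM in sham, 1066 and 1267 in mild, 296 and 919 in moderate and 716 and 440.2 in severe, with a log2 fold change of 1.84 ± 0.45 (edgeR adjusted p = 0.0313) for mild against sham. Ier2 was at 37.4 and 141 CPM in sham, 480.1 and 501 in mild, 56.1 and 101 in moderate and 282 and 100.2 in severe, with a log2 fold change of 2.67 ± 0.63 (edgeR adjusted p = 0.0284). DESeq2 called Fos and Jun for mild against sham and lost Ier2 (2.45, DESeq2 adjusted p = 0.0669). Of 9 heat shock genes, 0 passed for mild against sham in oligodendrocytes, in edgeR and in DESeq2.

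For moderate against sham no gene of the 10 passed in oligodendrocytes (0 in edgeR, against 3.94% of all genes). An unadjusted p below 0.05 was found for 1 of 10, beside 2026 of all 9457 genes, and DESeq2 called 0. For moderate against mild 0 passed, against 0.973% of all genes. Here 5 of 10 had an unadjusted p below 0.05, beside 2064 of all 9457 genes, and DESeq2 called Fos and Ier2 as lower. Their edgeR values were -2.09 ± 0.45 (adjusted p = 0.0530) and -2.81 ± 0.60 (adjusted p = 0.0524). In this contrast 0 of 9 heat shock genes passed in edgeR. DESeq2 called Hsp90aa1 as higher in moderate (edgeR log2 fold change 1.24 ± 0.32). Sham replicate 2 gave 33 oligodendrocytes and sham replicate 1 gave 1005. Without sham replicate 1 all 3 calls for mild were lost (Fos 2.52 with an edgeR adjusted p of 0.0890, Jun 1.55 with 0.209, Ier2 1.73 with 0.188). They were also lost without mild replicate 2 (Fos 2.49 with an edgeR adjusted p of 0.0628, Jun 1.74 with 0.130, Ier2 2.62 with 0.0975), and Jun (1.92, edgeR adjusted p = 0.161) and Ier2 (2.62, edgeR adjusted p = 0.145) without mild replicate 1.

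**Figure D2:**
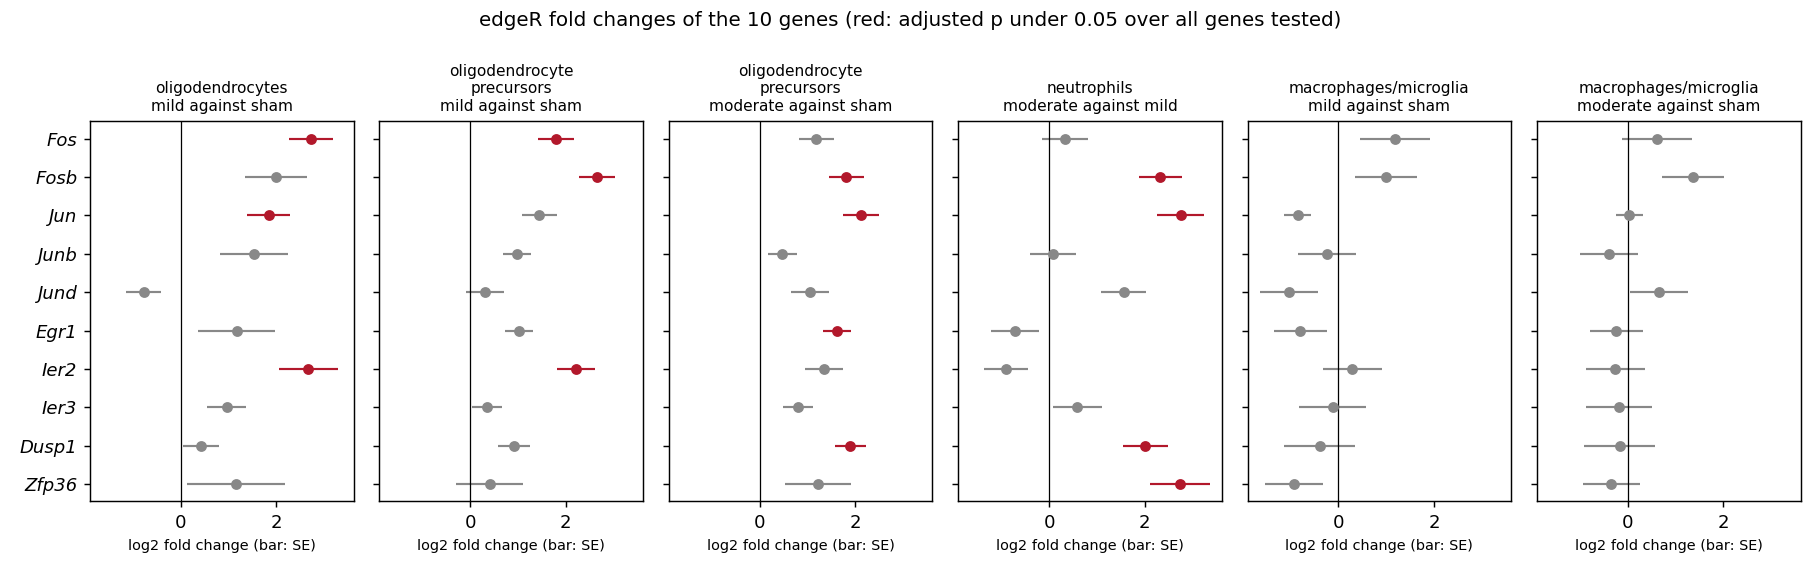
Log2 fold change of each of the 10 genes in edgeR (horizontal axis, bars show the standard error) for 6 pairs of cell type and contrast, with genes that passed an adjusted p of 0.05 in red. The red points, 3 or 4 in a panel, all lie to the right of 0, and both panels of macrophages/microglia have none.

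Neutrophils, short-lived phagocytes from blood, were too few in sham replicate 2 (1 cell) to be tested against sham. For moderate against mild 4 of 10 genes were higher and 0 lower, against 0.99% of all 5456 genes. Of the 54 genes in that share, 51 were higher and 3 lower, so the direction is not particular to the 10. Jun was at 572 and 803 CPM in mild and 3117 and 4851 in moderate (2.76 ± 0.49, edgeR adjusted p = 0.00729), Fosb at 172 and 212 in mild and 585 and 1051 in moderate (2.33 ± 0.45, edgeR adjusted p = 0.0142). Zfp36 was at 211 and 157 CPM in mild and 527 and 1641 in moderate (2.74 ± 0.62, edgeR adjusted p = 0.0322), and Dusp1 at 1120.4 and 767 in mild and 4028 and 2897 in moderate (2.02 ± 0.47, edgeR adjusted p = 0.0362). Fos, at 3461 and 2826 CPM in mild and 5065 and 2189.8 in moderate, did not pass (0.34 ± 0.48, edgeR adjusted p = 0.809). In the same contrast 2 of 9 heat shock genes were higher in neutrophils, Hspb1 (4.17 ± 0.71, edgeR adjusted p = 0.00485) and Hspa1b (4.0 ± 0.85, edgeR adjusted p = 0.0188), and their part in the calls was not tested. The neutrophils had a median of 814 and 834 UMIs in mild and 695.5 and 932 in moderate, in 778, 83, 158 and 255 cells. Each of the 4 calls was lost without mild replicate 1 (log2 fold changes of 2.61, 2.26, 3.12 and 2.45 for Jun, Fosb, Zfp36 and Dusp1, edgeR adjusted p from 0.378 to 0.433) and without mild replicate 2 (2.93, 2.39, 2.52 and 1.73, edgeR adjusted p from 0.343 to 0.575). Fosb, Zfp36 and Dusp1 were also lost without moderate replicate 2 (1.77, 1.60 and 2.21, edgeR adjusted p from 0.0551 to 0.403), Dusp1 without moderate replicate 1 (1.86, edgeR adjusted p = 0.0991) and Zfp36 without sham replicate 1 (2.72, edgeR adjusted p = 0.0766). The stricter gate lost Dusp1 (1.98, edgeR adjusted p = 0.0707).

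T cells were 47 and 35 cells in mild replicate 2 and moderate replicate 2. Like fibroblasts, they were too few in sham replicate 2 to be tested against sham. Jun was higher in moderate, at 1637 and 959 CPM, than in mild, at 423 and 455 CPM (1.60 ± 0.40, edgeR adjusted p = 0.0306), and was the 1 gene of the 10 that passed, against 0.856% of all 6307 genes. The call was lost without sham replicate 1 (1.62, edgeR adjusted p = 0.0511), mild replicate 1 (1.58, edgeR adjusted p = 0.683), mild replicate 2 (1.56, edgeR adjusted p = 0.279) or moderate replicate 1 (0.99, edgeR adjusted p = 0.272). With the stricter gate moderate replicate 2 had 19 T cells, and the contrast could not be fitted. In this contrast 4 of 9 heat shock genes were higher in T cells as well: Hsp90aa1 (3.47 ± 0.52, edgeR adjusted p = 3.01e-05), Hsph1, Dnaja1 and Hspa1b, the last at 0 UMIs in both mild libraries and at 369 and 479.6 CPM in the moderate ones. Their part in the Jun call was not tested. In fibroblasts, the collagen-producing cells of meninges and scar, 0 of 10 passed for moderate against mild in edgeR, as did 0.0% of 10923 genes. A total of 5 had an unadjusted p below 0.05, beside 1634 of the 10923 genes. DESeq2 called Fosb, Fos, Ier2 and Junb as lower in moderate, and the 0.0% is not its share of all genes. Junb, for example, was at 1539 and 1389 CPM in mild and 549 and 621 in moderate fibroblasts, with a log2 fold change of -1.42 ± 0.22 (edgeR adjusted p = 0.176), and Fosb at 1345 and 1880.1 in mild and 730.5 and 697 in moderate (-1.26 ± 0.26, edgeR adjusted p = 0.176). Heat shock genes went the other way in fibroblasts. In edgeR 0 of 9 passed, and DESeq2 called Hsp90aa1 and Hsph1 as higher in moderate (edgeR log2 fold changes of 1.535 and 1.759).

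Severe libraries against the others are described here without a test. In each cell type most genes, from 60.3% in T cells to 81.0% in macrophages/microglia, had a lower mean CPM in the severe libraries than in the others. The median log2 ratio was -0.59 in macrophages/microglia, -0.37 in oligodendrocytes, -0.40 in precursors, -0.42 in fibroblasts, -0.16 in T cells and -0.33 in neutrophils. Scaled by TMM factors in place of UMI totals, it lay nearer to no change, from -0.13 in macrophages/microglia to -0.04 in T cells. Values for the 10 genes are given relative to the median on the CPM scale. Fosb was below the median gene in all 6 types, with relative log2 ratios of -0.59 in macrophages/microglia, -1.48 in oligodendrocytes, -2.33 in precursors, -1.85 in fibroblasts, -1.96 in T cells and -2.80 in neutrophils. These were at the 1.61 to 4.78 percentile of genes in 5 types and at the 23.2 percentile in macrophages/microglia. Egr1 was below it in 5 types, from -0.66 in fibroblasts to -2.46 in T cells, and at 0.11 in oligodendrocytes. In oligodendrocytes the severe libraries lay apart: severe replicate 2 had the lowest Egr1 of 8 libraries, at 29.3 CPM, beside a severe mean of 112. In T cells severe replicate 2 was at 3.16 CPM, and sham replicate 1, at 14.9, lay between the severe libraries. Fos was at -1.88 in macrophages/microglia, -2.60 in T cells and -2.63 in neutrophils, at -1.27 in precursors and -0.68 in fibroblasts, but at 0.49 in oligodendrocytes.

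Ier3 was above the median gene in 5 types, by 1.95 in macrophages/microglia, 1.34 in neutrophils, 0.74 in oligodendrocytes, 0.65 in fibroblasts and 0.50 in precursors, and at -0.62 in T cells. Junb was above it in all 6, from 0.03 in precursors to 1.80 in oligodendrocytes, where severe replicate 1 stood at 1754 CPM and severe replicate 2 at 329. Of the other genes, Jund was above it in 5 types, with -0.41 in neutrophils, and Ier2 below it in 5, with 0.17 in oligodendrocytes. Dusp1 was between -0.37 and 0.66 in the 6 types, and Zfp36 between -1.35 in precursors and 1.11 in oligodendrocytes. The last value is a mean over opposite extremes. Severe replicate 1, with 68 oligodendrocytes, had the highest Zfp36 of 8 libraries, at 237 CPM, and severe replicate 2 the lowest, at 14.8.

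**Figure D3:**
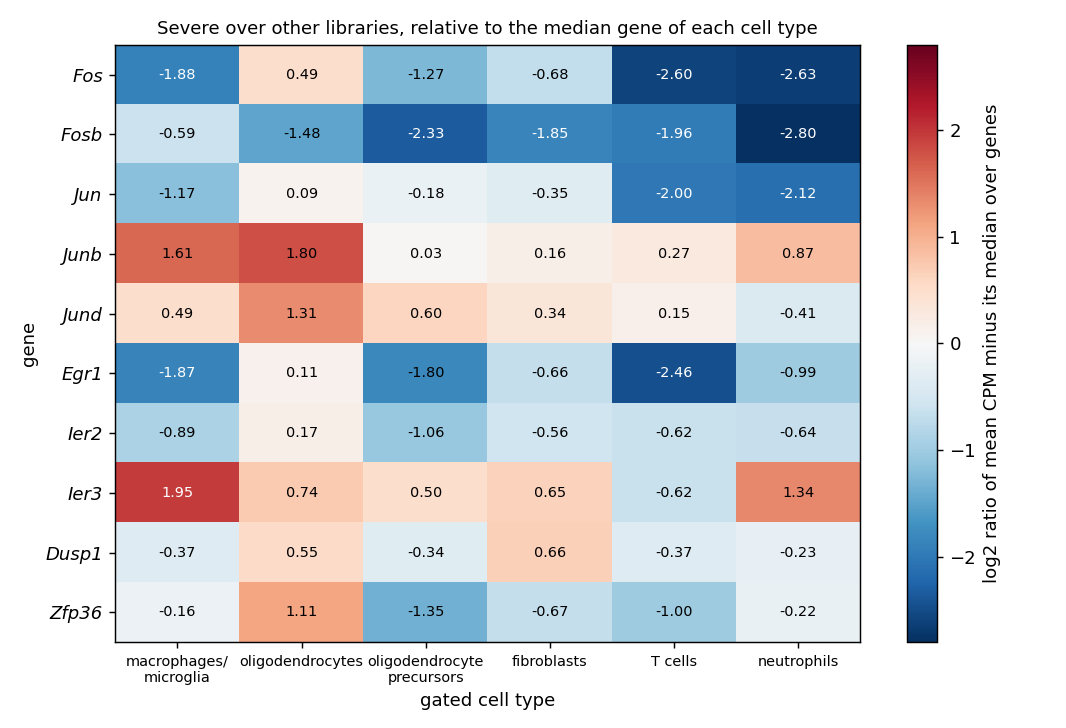
Log2 ratio of the mean CPM in severe libraries to that in the other libraries, minus the median of this ratio over all genes of the cell type, for the 10 genes (rows) and 6 cell types (columns). Blue cells are lower and red cells higher than the median gene. The Fosb row is blue throughout, and the column of oligodendrocytes is red but for Fosb.

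The count of genes for which both severe libraries lay below all others was set beside the share of all genes for which this held. In macrophages/microglia it was 4 of 10 (Fos, Jun, Egr1 and Ier2), beside 26.9% of all genes, and Ier3 was above all others, beside 2.26%. In the other 5 types 0 of 10 were above all others, beside 3.12% of genes in oligodendrocytes, 3.98% in precursors, 4.21% in fibroblasts, 4.44% in T cells and 4.71% in neutrophils. The count below all others was 2 of 10 in precursors (Fosb and Egr1, beside 18.4%), 2 in T cells (Fos and Jun, beside 5.72%) and 3 in neutrophils (Fos, Fosb and Jun, beside 10.2%), but 0 in oligodendrocytes (beside 14.2%) and 0 in fibroblasts (beside 19.1%). Without sham replicate 1, whose mitochondrial share was as low as that of the severe libraries, the counts were 6 in macrophages/microglia (beside 30.3%), 4 in precursors (23.1%), 4 in fibroblasts (28.4%), 5 in T cells (12%), 3 in neutrophils (18.8%) and 0 in oligodendrocytes (16.1%). Above all others was again Ier3 in macrophages/microglia (beside 2.97%), with 0 in oligodendrocytes (3.81%), precursors (4.7%), fibroblasts (5.9%), T cells (5.64%) and neutrophils (5.28%). Scaled by TMM factors in place of UMI totals, a choice made after seeing the data, the counts below were 2 in macrophages/microglia (Jun and Egr1, beside 11.2%), 2 in precursors (9.8%), 2 in T cells (4.55%), 2 in neutrophils (8.19%), 0 in oligodendrocytes (8.03%) and 0 in fibroblasts (9.2%). On that scale Junb and Ier3 were above all others in macrophages/microglia (beside 9.26%), Ier3 and Dusp1 in fibroblasts (11.9%) and Junb in neutrophils (8.85%), with 0 in oligodendrocytes (8.49%), precursors (11.9%) and T cells (6.66%).

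Heat shock genes were also uneven between these libraries. In macrophages/microglia sham replicate 1 was the highest library for Hspa1b, Hspb1, Hsp90ab1, Hsph1, Dnajb1, Hspd1 and Hspe1. Moderate replicate 2 was the highest for Hsp90aa1 and Dnaja1. Hspa1b, an inducible heat shock chaperone, stood at 6314 and 14.3 CPM in sham macrophages/microglia, 29.0 and 22 in mild, 531 and 507 in moderate and 472 and 510.2 in severe. In oligodendrocyte precursors Hspa1b was at 300.3 and 10.1 CPM in sham, 126 and 75.5 in mild, 432 and 1409 in moderate and 935 and 833 in severe. In neutrophils it was at 6029.6 CPM in sham replicate 1, 17.2 and 18.5 in mild, 368 and 166 in moderate and 292 and 31.4 in severe. Sham replicate 1 had the highest Hspa1b in macrophages/microglia and neutrophils beside the lowest Fosb in macrophages/microglia. It also had the highest Hspa1b in oligodendrocytes (366 CPM), fibroblasts (2065 CPM) and T cells (2999 CPM), but not in precursors. Its neutrophils had the lowest Junb, Jund and Ier3 of 7 libraries, at 2549, 387 and 1219 CPM, but not the lowest levels of the other genes. Their Egr1 was the highest of 7 libraries, at 1859 CPM. Their Fosb, at 164 CPM, lay above both severe libraries and below the mild and moderate ones. The severe libraries and sham replicate 1 share a low mitochondrial share over all kept cells, and also in macrophages/microglia, oligodendrocytes, precursors and fibroblasts. In neutrophils sham replicate 1 had a median of 0.971%, above the severe libraries, at 0.444% and 0.726%. Its T cells, at 3.82%, were also above the severe ones, at 2.63% and 2.68%. As no source used here gives the handling of each library, dissociation and injury cannot be told apart in these levels.

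**Figure D4:**
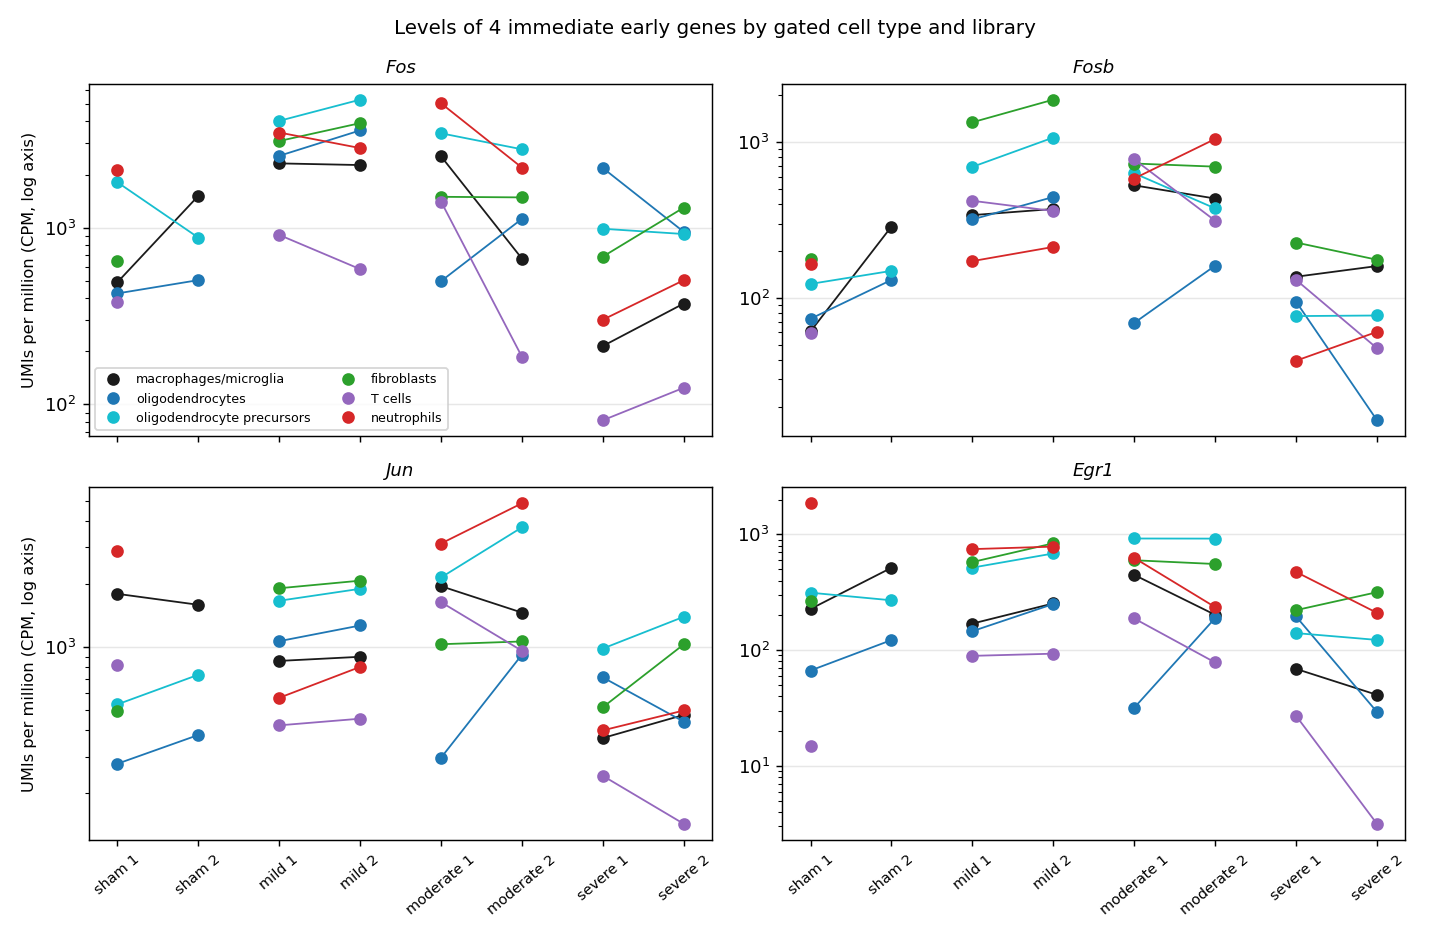
Levels of Fos, Fosb, Jun and Egr1 (CPM, logarithmic axis) in each of 8 libraries for 6 gated cell types, with a line joining the replicates of a group. Values are shown where a library held at least 20 cells of the type. Both severe libraries lie below all others for Fosb in oligodendrocyte precursors and neutrophils, while Fos in oligodendrocytes of severe replicate 1 is at 2178 CPM.

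Cell types of the same library share its handling, so they were also compared within libraries, with an exact two-sided sign-flip test of the difference in log2(CPM + 1), adjusted over all genes tested. The share of all genes that passed was large, so a gene of the 10 that passed is not particular for that. Dusp1 and Ier3 were higher in macrophages/microglia than in oligodendrocytes in 8 of 8 libraries, by 2.33 ± 0.85 (SD) and 4.75 ± 1.09, and Junb and Zfp36 in 7 of 8, by 1.35 ± 1.09 and 1.46 ± 1.35. These 4 of 10 genes passed (exact p = 0.00781 or 0.0156, adjusted p of at most 0.0247), where 69% of all genes did. Against precursors, Ier3 (2.16 ± 0.86), Dusp1 (1.97 ± 0.90) and Zfp36 (1.91 ± 1.08) were higher in 8 of 8 libraries, and Fos (-1.14 ± 0.99) and Egr1 (-1.05 ± 0.94) were lower in 7 of 8 (5 of 10 passed with an exact adjusted p of at most 0.0348, beside 70.2%).

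T cells and neutrophils both had more Ier2 than macrophages/microglia, and differed from them in opposite directions for Fos, Egr1 and Dusp1. T cells had less Ier3 (3.78 ± 1.37 higher in macrophages/microglia), Dusp1 (2.11 ± 0.62), Egr1 (1.92 ± 1.16), Fos (1.33 ± 0.56) and Jun (0.90 ± 0.47), and more Jund (-1.12 ± 0.41) and Ier2 (-0.90 ± 0.36), each in 7 of 7 libraries (7 of 10 passed with an exact adjusted p of 0.0424, beside 36.9%). Neutrophils had more Ier2 (-2.22 ± 0.36), Junb (-1.98 ± 0.42), Egr1 (-1.80 ± 1.09), Dusp1 (-1.55 ± 0.89), Zfp36 (-1.43 ± 0.84) and Fos (-0.95 ± 0.70), again in 7 of 7 libraries (6 of 10 passed with an exact adjusted p of 0.0341, beside 45.8%). Fibroblasts had more Egr1 (-1.45 ± 0.91) and Fosb (-1.12 ± 0.83) in 7 of 7 (2 of 10 passed with an exact adjusted p of 0.0359, beside 43.6%). Endothelial cells shared only 4 libraries with macrophages/microglia, where the smallest p an exact test allows is 0.125, so 0 of 10 could pass (beside 0%). In mean CPM, Ier3 was at 2248 in neutrophils (7 libraries), 1222 in macrophages/microglia (8 libraries) and 40.8 in oligodendrocytes (8 libraries), while Fos was at 2354, 1297 and 1473 in the same types.

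**Figure D5:**
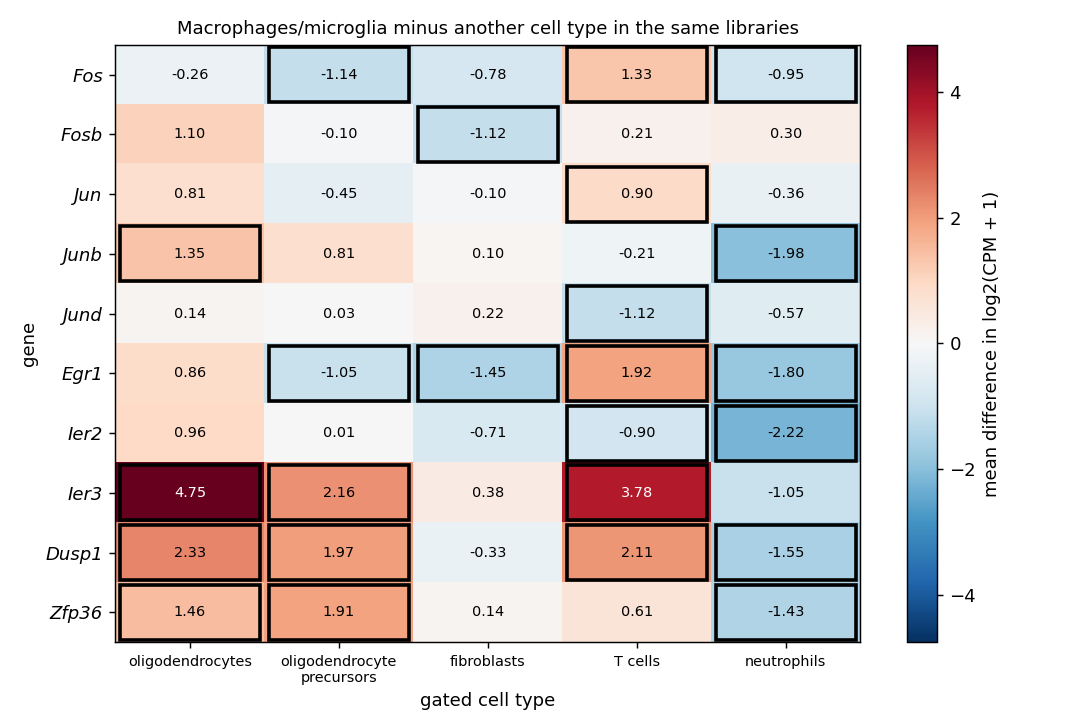
Mean difference in log2(CPM + 1) between macrophages/microglia and 5 other cell types of the same libraries for the 10 genes, with red cells higher and blue cells lower in macrophages/microglia. Boxes mark an adjusted p under 0.05 in the exact sign-flip test, and Ier3 against oligodendrocytes is the largest difference, at 4.75.

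Other genes of the same response were counted in macrophages/microglia from lists of further immediate early transcription factors (20 genes tested), effectors and feedback inhibitors (18), upstream kinases and factors (12) and heat shock genes (9). Few passed. For severe against sham, where 9.83% of all genes passed in edgeR, the transcription factor list had 1 higher, Maff (3.46 ± 0.62, adjusted p = 0.0156), and 1 lower, Egr2 (-2.63 ± 0.63, adjusted p = 0.0396), a relative of Egr1. The effector list had 3 higher and 2 lower: Dusp2 (4.43 ± 0.91, edgeR adjusted p = 0.0245), a phosphatase of the family of Dusp1, Gadd45b (3.67 ± 0.51, edgeR adjusted p = 0.00597), a stress-induced regulator of MAP kinase signalling, and Plk2 (2.23 ± 0.49, edgeR adjusted p = 0.0298) were higher, and Dusp6 (-2.21 ± 0.56, edgeR adjusted p = 0.0449) and Spry2 (-1.92 ± 0.43, edgeR adjusted p = 0.0310), both feedback inhibitors of growth factor signalling, were lower. DESeq2 called more in this contrast: 3 transcription factors higher and 3 lower, and 5 effectors higher and 2 lower. The 9.83% is the share for edgeR and does not apply to these counts. So the lists held members in both directions, and their medians were 0.42 for transcription factors and 0.62 for effectors, beside -0.09 for all genes.

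The remaining contrasts gave fewer calls in edgeR. For severe against moderate it called 0 in both of these lists, while DESeq2 called 2 transcription factors higher and 5 lower, and 2 effectors higher and 2 lower. For moderate against sham, where 4.07% of all genes passed, Atf3 (2.77 ± 0.59, edgeR adjusted p = 0.0417), a stress-induced partner of AP-1, and Gadd45b (2.21 ± 0.48, edgeR adjusted p = 0.0428) were higher. For mild against sham, where 8.24% of all genes passed, Plk3 (1.77 ± 0.44, edgeR adjusted p = 0.0463) was higher and Myc (-1.66 ± 0.41, edgeR adjusted p = 0.0454) lower. DESeq2 called 3 transcription factors and 6 effectors as higher and 0 as lower for moderate against sham. For mild against sham it called 1 transcription factor higher and 3 lower, and 2 effectors higher and 1 lower. For moderate against mild it called 3 transcription factors and 2 effectors as higher, where edgeR called 0. Among upstream genes Map2k2, a kinase that activates ERK, was higher in mild (0.96 ± 0.22, edgeR adjusted p = 0.0358) and severe (1.00 ± 0.22, edgeR adjusted p = 0.0278) than in sham, and Creb1, the factor that binds the element shown above, was higher in severe than in moderate (1.81 ± 0.30, edgeR adjusted p = 0.0286), where 1.76% of all genes passed. In macrophages/microglia no heat shock gene passed in any of these 5 contrasts in edgeR, while DESeq2 called 3 as lower in mild than in sham, 2 as higher in moderate than in mild and 1 as lower in severe than in moderate. Their median log2 fold change for moderate against mild was 1.92.

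Over the 8 libraries the genes whose level in macrophages/microglia was most like that of Fos, by Pearson's r of log2(CPM + 1) among 2334 genes with a mean of at least 50 CPM over the libraries, were Rps6ka1 (r = 0.97), Trappc1 (0.96), Ier2 (0.94), Isca1 (0.93) and Arl11 (0.93). Those most like Egr1 were Pdcd4 (0.98), Sh3kbp1 (0.96), Dusp6 (0.95), AABR07028769.1 (0.95) and Itga6 (0.95). Among the 10 genes, Fos went with Ier2 and less with Dusp1 (0.77), Egr1 (0.74), Fosb (0.72) and Jun (0.55), and its r with Junb was -0.28 and with Ier3 -0.20. The libraries that share a group or a low mitochondrial share also share these levels, so the values of r are a description.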

How the data were processed

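For each of the 8 libraries the authors deposited UMI counts per gene and cell barcode. The headers of the count tables name Cell Ranger 5.0.1, and the submitters' processing notes name the rat build Rnor_6.0. The values are raw counts with no normalization. The gene list, marker lists, gates and tests were all chosen with earlier results of these data known.

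Cells with more than 10% of UMIs on mitochondrial genes were removed, followed by presumed doublets (the top 7.7% by Scrublet score in every library, scanpy 1.11.5), then cells beyond the mean ± 2 SD of UMIs or detected genes of their library. A cell was assigned to a type when it had UMIs of at least 3 of that type's 6 markers and at least 2 more markers than of any other type. Markers not found under their symbol included Cd79a, Lhfpl3 and Pecam1. Libraries with fewer than 20 cells of a type were left out for that type. CPM are UMIs of a gene per 1000000 UMIs of the type in the library.

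Counts summed per library and type were tested with edgeR 4.0.16 (R 4.3.3, quasi-likelihood, TMM factors, filterByExpr, 4 groups in 1 fit), with Benjamini-Hochberg adjustment over all genes tested. Both tests were run on simulated data with set changes. The spread between libraries was also set there and not matched to these data, so the runs check the code and not the power here. Levels of cell types within libraries were compared with an exact sign-flip test of log2(CPM + 1), adjusted over all genes tested for both types rather than over the 10 genes. All 10 genes passed every low-count filter. Heat shock genes were also tested in the other cell types, a step added after seeing the data. Of the list genes, Cyr61, Mcl1 and Hspa1a were not found under these symbols. Genes to be named were the 10, up to 4 genes per list with the largest fold change among those that passed, and the 5 genes most like Fos or Egr1. Spry2, the fifth of its list, is named so that the count is complete. Promoter sequences and the coordinates printed with them are from RefSeq (GRCr8), whose gene list was also used to place the window of Fosb. The alternatives tried were DESeq2 1.42.0, other scalings, filters, gates and thinning depths, a replicate block, and leaving out each library. As no share of all genes called is given for DESeq2, its counts cannot be set against one. Intervals of shares are exact (Clopper-Pearson, 95%) and cover counting error only, and the limit that a count of 0 allows is 3 counts.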

Additional observations from a re-analysis of the deposited data

Results flagged for a closer look

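In 6 instances all libraries of a group lay above those of another group in a cell type, and below them in another type. In none of these was the difference between the types tested. How often such opposite separations occur among all genes was not counted, so the 6 instances cannot be set against a share. With so few libraries in a group, a full separation can arise from the spread between libraries alone. The instances are therefore given as a description. For mild against sham, the log2 ratio of mean CPM of Jun was 1.83 in oligodendrocytes and -0.95 in macrophages/microglia, a difference of 2.77, and oligodendrocyte precursors went with oligodendrocytes. The log2 ratio of Zfp36 for the same groups was 1.16 in oligodendrocytes and -0.95 in macrophages/microglia, a difference of 2.10. For moderate against mild, Fosb was at 2.09 in neutrophils and -1.73 in oligodendrocytes, a difference of 3.82, with macrophages/microglia on the side of neutrophils and precursors and fibroblasts on that of oligodendrocytes. Jun was at 2.53 in neutrophils and -0.94 in oligodendrocytes for these groups, a difference of 3.48, and fibroblasts again went with oligodendrocytes. Macrophages/microglia, precursors and T cells went with neutrophils for Jun. Egr1 was at 0.62 in precursors and -0.83 in neutrophils, a difference of 1.45. Dusp1 was at 1.88 in neutrophils and -0.50 in oligodendrocytes, a difference of 2.38, with precursors on the side of neutrophils and fibroblasts on that of oligodendrocytes.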

How the results depend on the processing

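In macrophages/microglia the number of the 10 genes that passed for mild against sham was 0, and it was 1 with DESeq2, 3 with no filter on low counts and 0 to 1 when a library was left out. For moderate against sham it was 0, with 1 under no filter and 0 to 2 when a library was left out, 2 being the value without sham replicate 2. For moderate against mild it was 0, with 1 under no filter. In the other cell types 15 passed in total, and this became 26 with DESeq2 and 8 with the stricter gate, under which precursors against sham and T cells could not be fitted for want of cells, Dusp1 in neutrophils was lost, and Fos and Ier2 in oligodendrocytes were called as lower in moderate than in mild. Leaving out a library gave 5 (without mild replicate 2) to 24 (without severe replicate 1). Further values were 6 without mild replicate 1, 7 without moderate replicate 2, 19 without sham replicate 2 and 21 without severe replicate 2. The lists of related genes had 14 passes over 5 contrasts, with 56 under DESeq2. Replicate numbers did not pair the libraries (r of same-numbered deviations from group means -0.19 to 0.20). With a replicate block in the fit, 13 passed in the other cell types and 6 in the lists. Of 60 comparisons between macrophages/microglia and other types 24 passed, which became 14 with the stricter gate and 4 when 100 cells a library were asked for, and 7 to 24 when a library was left out, since fewer libraries raise the smallest p an exact test can give (24 was the value without sham replicate 2). Jund in macrophages/microglia had a log2 ratio of severe to other libraries of -0.10, which turned to 0.0205 with the stricter gate, 0.23 in the microglia sub-gate, 0.05 without sham replicate 2, 0.19 without moderate replicate 2 and 0.12 without severe replicate 2, and lay at -0.36 without severe replicate 1. The causes of these changes were otherwise not tested. Sham values rest on as few as 33 oligodendrocytes and on 32 and 53 precursors. The sham libraries had unequal neutrophil and mitochondrial shares, which may bear on any comparison with sham, and their part was not tested.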
